A study of Mus musculus with 18 samples.

Results

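Of 63244 mouse transcript identifiers counted by RNA sequencing in primary chondrocytes, 114 (0.180%) had a higher value in each of 9 hypoxia libraries than in any of 9 normoxia libraries and met 3 further conditions. Values are CPM, the reads of an identifier per 1000000 reads that the library had assigned to identifiers. The further conditions were an average of 2 CPM or more across the 18 libraries, a hypoxia to normoxia ratio of mean CPM + 0.5 of at least 2, and an IL-6 to untreated ratio at 12 h above 0.67 and below 2 in at least 1 oxygen condition. The members were therefore chosen by their hypoxia values, and everything given about that contrast, and about IL-6, is a description with no test. The comparison of 12 h with 0 h was not used to choose them and is tested. The rule does use the same libraries, since each hypoxia library must exceed every normoxia library. The 12 h untreated means also enter the IL-6 bound. Shares of members called over time are set beside identifiers not chosen in this way, and the effect of that choice was not tested.

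Chondrocytes, the cells that make and maintain cartilage, came from wild type mice and were primary cells, grown in medium with serum and then kept in serum-free medium. There were 6 groups of 3 libraries: hypoxia (1% oxygen) at 12 h with interleukin-6 (IL-6, 100 ng/ml), hypoxia at 12 h untreated, hypoxia at 0 h untreated, and the same 3 states in normoxia (21% oxygen). The protocol text speaks of IL-6 or IL-6R, while the sample labels name IL-6 alone. Age, number of animals, time in low oxygen before 0 h, and whether replicates 1 to 3 were separate animals or cultures are not given in the sources used here, so a p-value reflects only how far these libraries vary, and that variation may be technical.

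Cartilage has no blood vessels, and its cells live at low oxygen. Cells sense a fall in oxygen mainly through the hypoxia-inducible factors, transcription factors whose alpha subunits are hydroxylated and degraded when oxygen is present and persist when it is scarce. They are known to raise genes of glycolysis, glucose uptake, vessel growth and collagen modification, and in cartilage they are known for chondrocyte survival and matrix production. IL-6 is a cytokine of joint inflammation that signals through the gp130 receptor subunit to STAT3.

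The deposited table names UCSC transcripts and pairs none with a gene symbol. No member is therefore given a gene name, role or sequence, and the labelled cell type could not be checked against chondrocyte markers. Members are numbered from rank 1, the largest hypoxia to normoxia ratio, to rank 114, and only 2 are named: uc009mix.2, the member with the largest ratio, and uc009eml.1, the member with the highest mean hypoxia CPM. Several identifiers can belong to 1 gene, so a number of members is not a number of genes. CPM is not corrected for transcript length, so levels are compared between libraries and not between identifiers. In these bulk samples, fewer cells of a type and less RNA per cell cannot be told apart.

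Assigned reads ran from 3088280 to 10241162 per hypoxia library and from 5012398 to 9735866 per normoxia library. Reads that fell on more than 1 identifier were left unassigned by the counting and made up 46.5% ± 2.71 of uniquely aligned reads (SD, n = 18), so members that overlap other transcripts were counted from part of their reads. Replicate 3 of each hypoxia group differed from the other hypoxia libraries. Its 10 highest identifiers took 21.2% to 30.3% of assigned reads, against 13.7% to 15.7% in the other 6, and its 3 libraries were the only ones in sequencing lane 8. In normoxia the share of the 10 highest identifiers reached 22.2%, in replicate 1, so the lower values of replicate 3 in hypoxia (21.2% and 21.7%) lay within the normoxia range. Replicate 3 and lane 8 cannot be told apart in hypoxia, and results are given below with and without these libraries.

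The rule narrowed the identifiers stepwise. A mean of at least 2 CPM was reached by 10072 identifiers. Of these, 151 had all 9 hypoxia libraries above all 9 normoxia libraries, which is 1.5%, and 501 (4.97%) had all 9 hypoxia libraries below all 9 normoxia libraries. A ratio of at least 2 was met by 116 of the 151, and the IL-6 bound removed 2 more, which left the 114. The bound was met in both oxygen conditions by 101 members, in hypoxia only by 5 and in normoxia only by 8. Another 134 identifiers met the level, ratio and IL-6 conditions but had some overlap between hypoxia and normoxia libraries.

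Values near the thresholds lay close to each other. The smallest ratio among members was 2.05, and the nearest identifier outside had 1.96. The lowest mean over the 18 libraries was 2.04 CPM inside and 1.71 CPM outside. The closest pair of groups among members had a lowest hypoxia library at 1.01 times the highest normoxia library, and the nearest identifier outside was at 0.998 times.

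**Figure D1:**
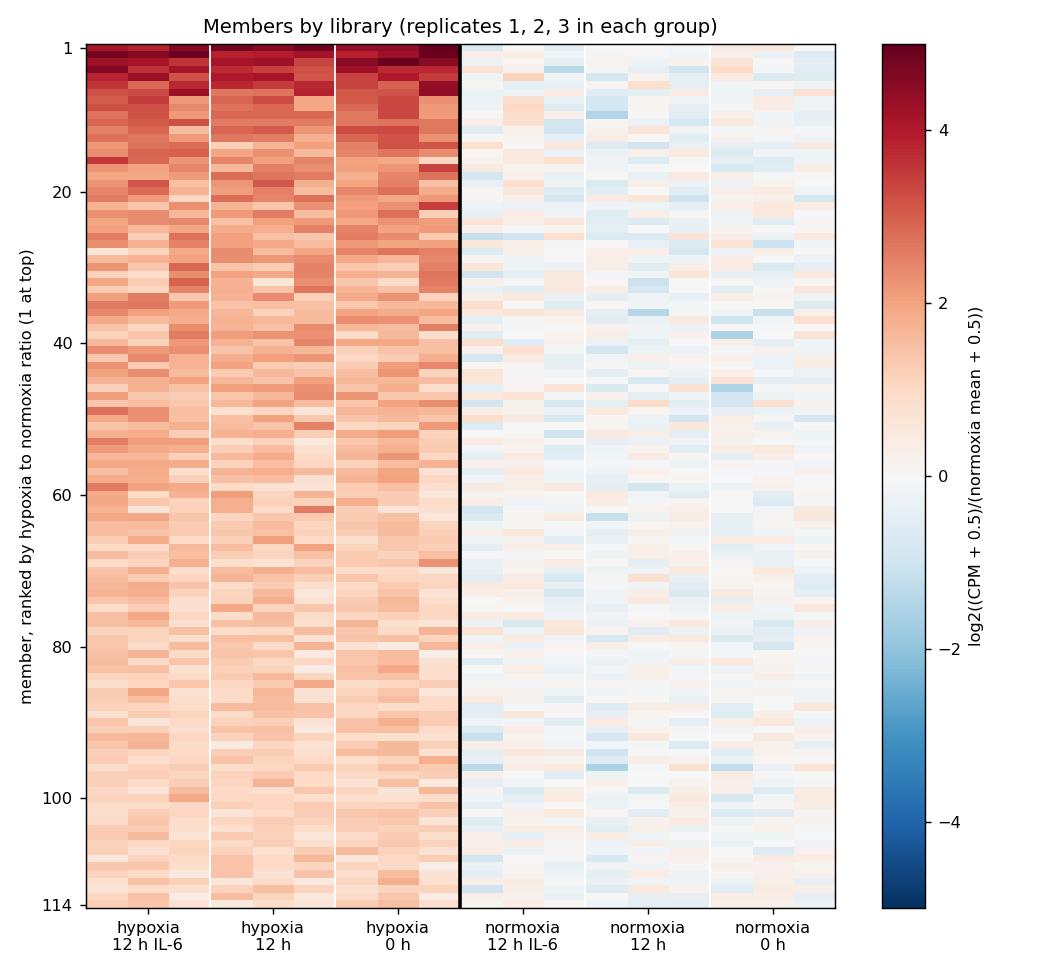
Each row is a member, ranked by its hypoxia to normoxia ratio with rank 1 at the top, and each column a library, with hypoxia left of normoxia and replicates 1 to 3 in each group. The colour is log2 of CPM + 0.5 over the member's normoxia mean + 0.5. All hypoxia columns are red by construction of the rule, and the colour is deepest in ranks 1 to 7, whose ratios are 11.8 to 23.3.

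The ratios were spread unevenly. They ran from 2.05 to 23.3 with a median of 2.94, and 59 of the 114 were under 3. A ratio of at least 4 was found in 29 members and of at least 10 in 7, ranks 1 to 7, with ratios of 23.3, 21.4, 19.0, 14.8, 13.7, 12.3 and 11.8. Rank 8 followed at 7.56. The gap between groups, the lowest hypoxia value over the highest normoxia value, had a median of 1.38. It was at least 2 in 18 members and under 1.1 in 16, so the separation of the libraries was narrow for many members.

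The member with the largest ratio, uc009mix.2, had hypoxia values above normoxia values in every state, which the rule requires of all members. At 12 h with IL-6 it had 197, 167 and 282 CPM in hypoxia, against 6.54, 11.1 and 7.89 CPM in normoxia. At 12 h untreated it had 324, 277 and 343 CPM in hypoxia, against 11.2, 11.5 and 10.4 CPM in normoxia. At 0 h it had 247, 256 and 375 CPM in hypoxia, against 14.8, 16.7 and 11.5 CPM in normoxia. The lowest hypoxia library, replicate 2 at 12 h with IL-6, stood 10.0 times above the highest normoxia library. The means were 274 ± 67.2 CPM in hypoxia and 11.3 ± 3.08 CPM in normoxia (SD, n = 9 each), from 14428 reads in hypoxia and 812 in normoxia. Its log2 difference between hypoxia and normoxia, estimated with edgeR and shown as a description, was 4.68 (SE 0.29) at 12 h with IL-6, 4.84 (SE 0.29) at 12 h untreated and 4.51 (SE 0.29) at 0 h. Replicate 3 was its highest hypoxia library in each state.

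Rank 2 had the widest gap of all members. At 12 h with IL-6 it had 108, 93.9 and 119 CPM in hypoxia, against 4.54, 4.59 and 2.95 CPM in normoxia. At 12 h untreated it had 56.7, 59.7 and 71.4 CPM in hypoxia, against 3.58, 3.46 and 3.13 CPM in normoxia. At 0 h it had 58.7, 76.0 and 117 CPM in hypoxia, against 4.19, 2.76 and 2.05 CPM in normoxia. Its lowest hypoxia library was 12.4 times its highest normoxia library. The means were 84.5 ± 25.4 CPM in hypoxia and 3.47 ± 0.854 CPM in normoxia (SD, n = 9 each).

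Rank 3 was near the detection limit in normoxia. It had 15.1, 14.0 and 9.68 CPM in hypoxia at 12 h with IL-6, 13.9, 15.1 and 8.08 CPM at 12 h untreated, and 18.6, 25.2 and 18.8 CPM at 0 h. Its normoxia values lay between 0.103 and 0.798 CPM, which is 1 to 4 reads per library and 22 reads in all. By counting error alone, a library with a count of 0 may still hold up to 3 reads, which is 0.293 to 0.971 CPM depending on its depth. The ratio of 19.0 therefore rests on few normoxia reads, and the added 0.5 CPM lowers it.

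Rank 4 was highest in replicate 1 of all 6 groups. At 12 h with IL-6 it had 815, 415 and 572 CPM in hypoxia, against 54.0, 38.1 and 12.5 CPM in normoxia. At 12 h untreated it had 435, 347 and 295 CPM in hypoxia, against 30.0, 24.0 and 16.9 CPM in normoxia. At 0 h it had 617, 430 and 447 CPM in hypoxia, against 64.4, 29.8 and 21.5 CPM in normoxia. Hypoxia and normoxia values stayed at least 4.58-fold apart.

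Ranks 5, 6 and 7 were at about 2 CPM in normoxia. Rank 5 averaged 33.7 ± 9.58 CPM in hypoxia and 2.0 ± 1.28 CPM in normoxia, rank 6 averaged 31.8 ± 10.8 CPM in hypoxia and 2.13 ± 0.850 CPM in normoxia, and rank 7 averaged 30.9 ± 15.4 CPM in hypoxia and 2.16 ± 0.918 CPM in normoxia (SD, n = 9 each). Rank 7 followed replicate 3 in both oxygen conditions. Its 3 hypoxia libraries of replicate 3 had 53.2 CPM at 12 h with IL-6, 39.3 CPM at 12 h untreated and 57.6 CPM at 0 h, against 16.0 to 25.9 CPM in the other 6. Among its normoxia libraries, replicate 3 had 3.05, 3.02 and 3.90 CPM, against 1.34 to 1.80 CPM in the other 6.

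**Figure D2:**
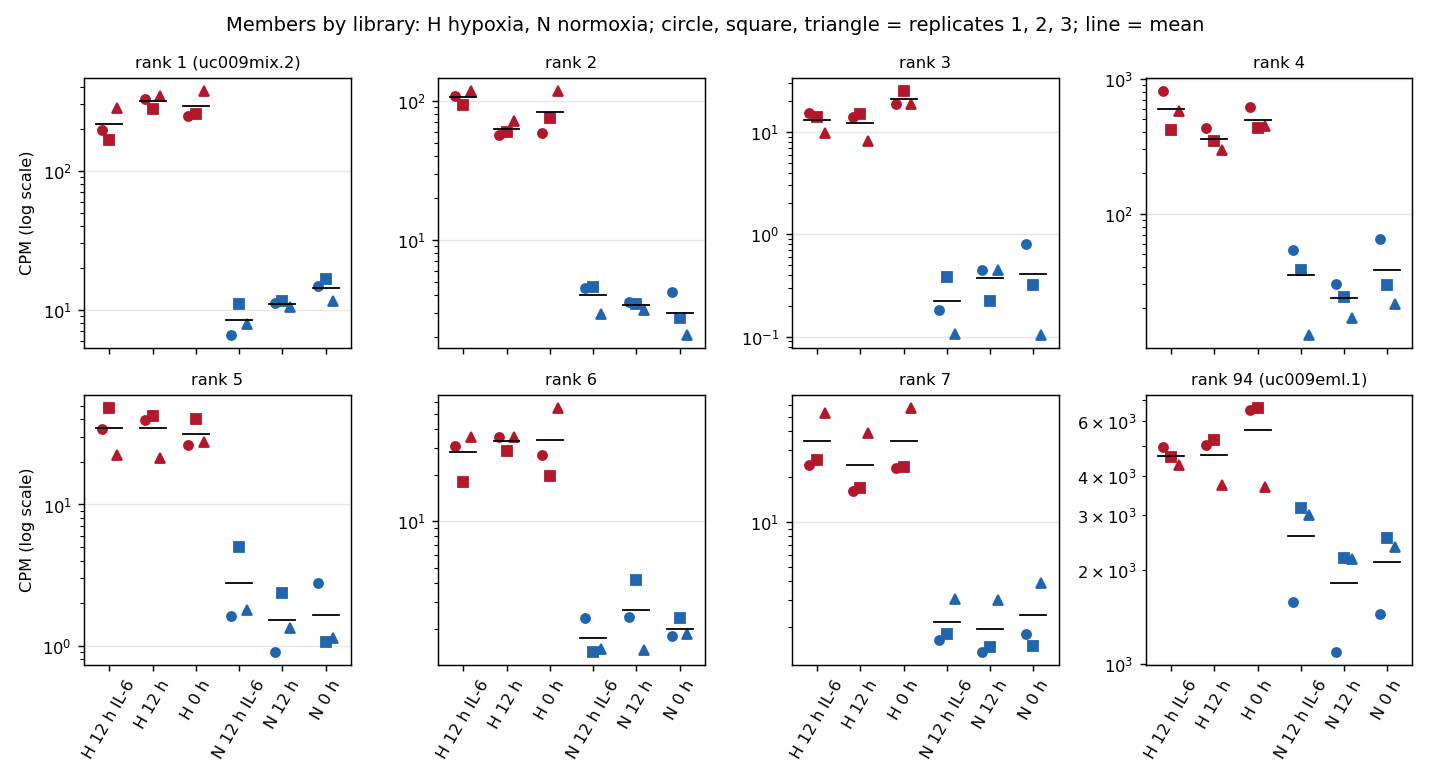
CPM on a log axis, with its own range in each panel, for ranks 1 to 7 and for uc009eml.1 (rank 94), in the 3 hypoxia groups (red) left of the 3 normoxia groups (blue). Circles, squares and triangles are replicates 1, 2 and 3, and lines are group means. In ranks 1 to 7 the lowest hypoxia point is at least 4.10 times the highest normoxia point, and in uc009eml.1 the distance is smaller and replicate 1 is the lowest normoxia library in each state.

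The most highly counted member in hypoxia, uc009eml.1, ranked 94 by ratio. At 12 h with IL-6 it had 4933, 4586 and 4330 CPM in hypoxia, against 1570, 3142 and 2988 CPM in normoxia. At 12 h untreated it had 5027, 5213 and 3723 CPM in hypoxia, against 1085, 2184 and 2163 CPM in normoxia. At 0 h it had 6519, 6617 and 3686 CPM in hypoxia, against 1437, 2532 and 2360 CPM in normoxia. The lowest hypoxia library was replicate 3 at 0 h and the highest normoxia library was replicate 2 with IL-6. The means were 4959 ± 1057 CPM in hypoxia and 2162 ± 694 CPM in normoxia (SD, n = 9 each), a ratio of 2.29. By state the ratio was 1.80 with IL-6, 2.57 at 12 h untreated and 2.66 at 0 h.

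The members covered a wide range of levels. Mean CPM ran from 3.49 to 4959 in hypoxia (median 30.5) and from 0.334 to 2162 in normoxia (median 9.61). In hypoxia 7 members averaged at least 1000 CPM, 32 at least 100 CPM and 26 under 10 CPM. Members under 1 CPM in normoxia numbered 11 and had a median ratio of 3.82, the 47 from 1 to 10 CPM a median of 2.98, the 41 from 10 to 100 CPM a median of 2.56 and the 15 at 100 CPM or more a median of 3.18. Ratios of at least 4 were found in all of these bands, in 5, 12, 8 and 4 members. By the level condition of the rule, an identifier under 1 CPM in normoxia can enter only through its hypoxia values. The ratios of the lowest band are therefore partly fixed by the rule. No member had a count of 0 in hypoxia, where the lowest count was 5, and 3 members had a count of 0 in 1 normoxia library each.

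Together the members took 2.69% ± 0.337 of assigned reads in hypoxia and 0.870% ± 0.148 in normoxia (SD, n = 9 each). At 12 h with IL-6 the share was 2.73% ± 0.361 in hypoxia and 0.958% ± 0.190 in normoxia. At 12 h untreated it was 2.53% ± 0.357 in hypoxia and 0.775% ± 0.122 in normoxia, and at 0 h 2.82% ± 0.364 in hypoxia and 0.878% ± 0.109 in normoxia (SD, n = 3 each). The hypoxia sum was 2.85, 3.27 and 3.21 times the normoxia sum in these states. Few members make up the sum, since 3 of them held 44.8% and 10 of them 72.2% of the members' hypoxia CPM. Replicate 2 had the highest sum in every group, and in hypoxia replicate 3 had the lowest in every state, except that replicate 1 was lowest at 0 h with TMM scaling, edgeR's correction for a few identifiers taking much of a library.

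Across the 3 states the ratio of most members differed by less than 1.5 times. Its median over members was 3.0 at 12 h with IL-6, 2.80 at 12 h untreated and 2.89 at 0 h. Ratios of at least 2 were found in 105, 108 and 100 members in these states, and in all 3 states in 88. The largest ratio was found at 12 h with IL-6 for 38 members, at 12 h untreated for 40 and at 0 h for 36. The highest state's ratio was less than 1.5 times the lowest state's in 79 members and at least 2 times in 6. Over the 10072 identifiers at 2 CPM or more the median log2 ratio was −0.01 with IL-6, 0.03 at 12 h untreated and −0.12 at 0 h. The members' median log2 ratios were 1.58, 1.48 and 1.53, and scaling the libraries with TMM gave 1.69 at 0 h, where it raised the median over the 10072 by 0.13.

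The 6 members whose states differed most were ranks 10, 15, 28, 49, 62 and 92, and 5 of them averaged under 10 CPM in hypoxia. Rank 10 had ratios of 5.01 with IL-6, 10.5 at 12 h untreated and 7.13 at 0 h. Rank 49 had ratios of 4.47 with IL-6, 1.62 at 12 h untreated and 3.96 at 0 h. Rank 92, at a mean of 21.7 CPM in hypoxia, had ratios of 3.29 with IL-6, 2.35 at 12 h untreated and 1.54 at 0 h. The difference between states was not tested, since the oxygen contrast chose the members.

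**Figure D3:**
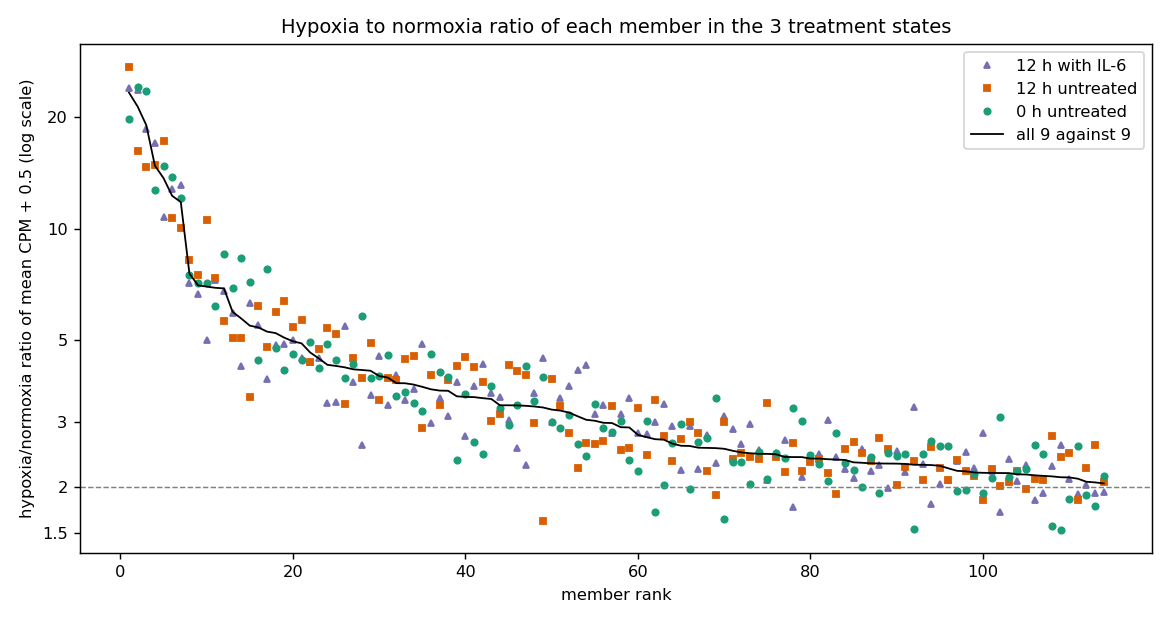
Hypoxia to normoxia ratio of mean CPM + 0.5 (log axis) of each member by rank, for 12 h with IL-6 (triangles), 12 h untreated (squares) and 0 h untreated (circles), with the ratio over all 9 against 9 libraries as a line and a ratio of 2 dashed. Points of the 3 states keep close to the line for most members, and the lowest values are 1.71 with IL-6, 1.62 at 12 h untreated and 1.53 at 0 h.

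Sequencing lanes were only partly shared by the oxygen conditions. Lane 3 held 3 hypoxia and 3 normoxia libraries, and lane 6 held 3 hypoxia libraries and 1 normoxia library. Lanes 2 and 7 held normoxia only. Within lane 3 the ratio ran from 1.61 to 18.9 with a median of 2.98, and 102 of the 114 members were at 2 or more. Within lane 6 it ran from 1.70 to 21.1 with a median of 2.80, and 93 members were at 2 or more. The rule fixes that every member is higher in hypoxia within each lane, so only the sizes are given here, and in neither lane are the treatment states of the compared libraries balanced.

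Replicate 3 in hypoxia was below replicates 1 and 2 in 61.4% of members, against 52.5% of the 10072 identifiers at 2 CPM or more. The mean of its 3 libraries over that of the other 6 had a median of 0.859 over members, with 70 of the 114 below 1, against 0.974 over the 10072. It lay 1.5-fold or more away in 34 members (29.8%), 13 higher and 21 lower, against 35.7% of the 10072. In normoxia replicate 3 over the others had a median of 0.966, and 24 members (21.1%) were 1.5-fold or more away, against 9.57% of the 10072. All 3 hypoxia libraries of replicate 3 were above the other 6 in 12 members (10.5%, against 12.4% of the 10072) and below them in 23 members (20.2%, against 18.5%). These shares were near the background for hypoxia.

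Leaving out replicate 3 of all hypoxia groups left most ratios at 2 or more. Their median was 2.85 without these libraries and 2.94 with them, and 112 of the 114 members stayed at 2 or more. For the 12 members with replicate 3 on top, the median ratio was 2.80 without it and 3.82 with it. For the 23 with replicate 3 at the bottom it was 2.83 without it and 2.62 with it. Both sets were picked by their replicate 3 values, so the direction of these shifts was fixed by the choice and only the sizes are given. The rule applied without the replicate 3 libraries of hypoxia picked 242 identifiers, 107 of them among the 114. With fewer libraries the separation of hypoxia from normoxia is easier to meet, whichever libraries are left out. Leaving out replicate 1, 2 or 3 in both oxygen conditions also lengthened the list, to 142, 144 and 318. The length thus also differed with the replicate left out, and the cause of this was not tested.

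**Figure D4:**
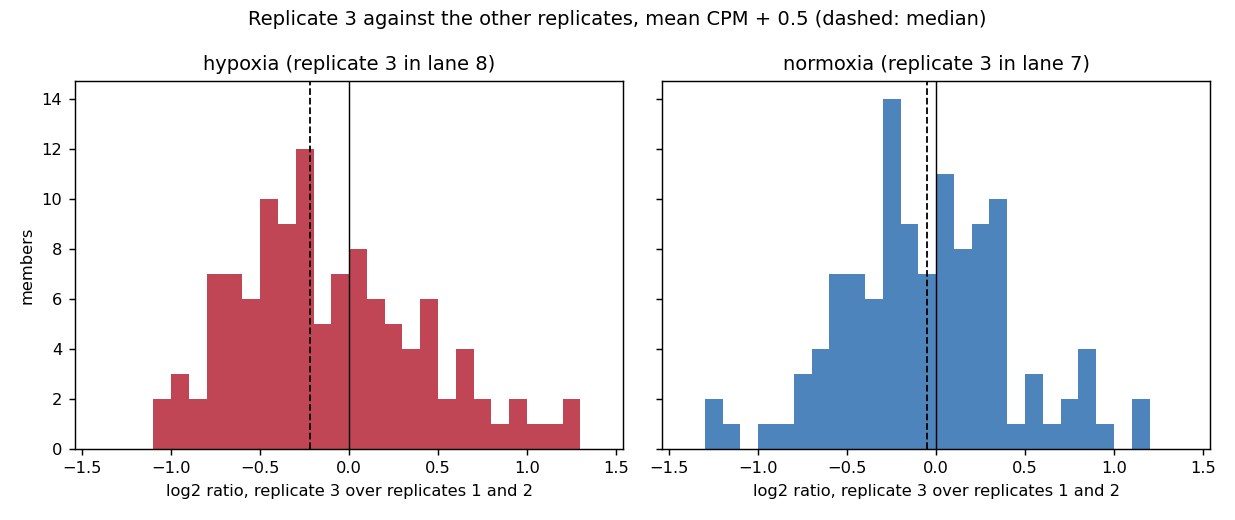
Number of members by the log2 ratio of replicate 3 over replicates 1 and 2 (mean CPM + 0.5 over the 3 states), in hypoxia on the left and normoxia on the right, with the median dashed. In hypoxia 70 of 114 members lie left of 0 (61.4%, against 52.5% of the 10072 identifiers at 2 CPM or more), and in normoxia 62 of 114 (54.4%, against 44.2%).

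IL-6 entered the rule only as a bound, and most members had similar values with and without it. The ratio at 12 h, IL-6 over untreated, ran from 0.621 to 2.70 in hypoxia (median 1.04) and from 0.654 to 2.19 in normoxia (median 1.02). It was above 1 in 65 members in hypoxia and in 64 in normoxia. The median log2 IL-6 ratio over members was 0.051 in hypoxia and 0.033 in normoxia. Over the 10072 identifiers at 2 CPM or more it was −0.034 and −0.017. At least 2 was reached by ranks 49, 53 and 59 in hypoxia and by ranks 14, 24 and 36 in normoxia. The rule fixes that no member reaches 2 in both oxygen conditions.

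Rank 53 was higher with IL-6 in both oxygen conditions. It had 195, 139 and 141 CPM with IL-6 and 60.6, 72.4 and 46.6 CPM untreated in hypoxia. In normoxia it had 42.9, 37.9 and 32.6 CPM with IL-6 and 24.0, 26.0 and 28.6 CPM untreated. The IL-6 and untreated libraries did not overlap in either oxygen condition, and the ratios were 2.63 in hypoxia and 1.43 in normoxia.

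Rank 59 showed the same order of values. Its hypoxia values were 66.4, 44.8 and 41.1 CPM with IL-6 and 21.7, 18.5 and 17.6 CPM untreated, a ratio of 2.60. Its normoxia values were 14.7, 13.1 and 14.8 CPM with IL-6 and 7.77, 5.25 and 8.73 CPM untreated, a ratio of 1.90. Rank 49, at 16.5, 11.7 and 6.60 CPM with IL-6 and 3.90, 4.70 and 3.35 CPM untreated in hypoxia, had a ratio of 2.70 there and of 0.980 in normoxia.

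In normoxia the 3 members with the largest IL-6 ratios also had ratios above 1 in hypoxia. Rank 36 had 204, 223 and 203 CPM with IL-6 and 106, 53.5 and 138 CPM untreated in normoxia, a ratio of 2.11, and its hypoxia ratio was 1.56. Rank 24 had 40.5, 32.1 and 38.4 CPM with IL-6 and 17.2, 16.0 and 20.4 CPM untreated, a ratio of 2.05, and its hypoxia ratio was 1.29. Rank 14 had 23.4, 13.1 and 18.8 CPM with IL-6 and 8.07, 6.37 and 10.1 CPM untreated, a ratio of 2.19, and its hypoxia ratio was 1.84. Low ratios of 0.67 or less were found in hypoxia for ranks 18, 21, 28, 46 and 62 and in normoxia for ranks 12 and 48.

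The comparison of 12 h with 0 h in untreated cells asks whether members moved during the 12 h in serum-free medium. No member was called in hypoxia, in normoxia or for the difference between them by edgeR's quasi-likelihood test at a Benjamini-Hochberg adjusted p under 0.05. All 114 members were among the 13432 identifiers tested, of which 0% were called in hypoxia, 0.00744% in normoxia and 0% for the difference. At an unadjusted p under 0.05, 12 members passed in hypoxia, 2 higher and 10 lower at 12 h, 1 passed in normoxia and 3 for the difference. These are 10.5%, 0.877% and 2.63% of the members, against 4.65%, 0.804% and 1.94% of all identifiers tested, so the shares in normoxia and for the difference were near the background. DESeq2 also called 0 members in each comparison. Of the 30719 identifiers it tested, a larger set than edgeR's, it called 2 in hypoxia, 2 in normoxia and 0 for the difference. At an unadjusted DESeq2 p under 0.05, 12, 2 and 3 of the 114 members passed in these comparisons. The shares of all identifiers that passed were 2.78%, 0.469% and 1.24%. The lowest adjusted p of a member in hypoxia was 0.804 by edgeR. The median log2 fold change, 12 h over 0 h, was −0.14 in hypoxia for members and 0.02 for all identifiers tested, −0.05 and 0.01 in normoxia, and −0.09 and 0.02 for the difference.

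Libraries with the same replicate number and oxygen level shared deviations from their groups (their correlations are given with the methods), so the replicate number was also fitted as a block. With the block, 15 members were called in hypoxia by edgeR's test at the same threshold, 1 higher and 14 lower at 12 h. That is 13.2% of the 114, against 1.89% of the 13432 identifiers tested, of which 0.566% were higher and 1.33% lower, and 2.41% of those at 2 CPM or more (0.695% higher and 1.72% lower). In normoxia 0 members were called with the block (0.141% of all, 0.0521% higher and 0.0893% lower) and 0 for the difference between oxygen conditions (0.112% of all). At an unadjusted p under 0.05 with the block, 18 members (15.8%) passed in normoxia, against 5.78% of all identifiers tested, and 19 (16.7%) passed for the difference, against 10.0% of all. Many hypoxia calls were lost when a replicate was left out. Without replicate 1, 2 or 3 the blocked fit called 2, 6 and 10 members, of which 2, 4 and 8 were among the 15, and 1 of the 15 was called in each of these fits. Over all identifiers tested the same fits called 17 of 13801, 95 of 13749 and 257 of 13274, so calls fell in number for members and for all identifiers without replicate 1 or 2.

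The member called in all of these fits was rank 14, which was lower at 12 h in each same-numbered pair. It had 30.3, 43.9 and 55.8 CPM at 12 h and 77.1, 122 and 120 CPM at 0 h in hypoxia, and the groups did not overlap. Its log2 fold change with the block was −1.42 (SE 0.14, edgeR adjusted p = 2.14e-07), and the edgeR fit without the block gave the same value to 2 decimals with an adjusted p of 0.804. In normoxia it had 8.07, 6.37 and 10.1 CPM at 12 h and 9.78, 9.56 and 17.8 CPM at 0 h, and it was not called. With IL-6 at 12 h in hypoxia it had 59.7, 88.6 and 92.3 CPM.

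Among the called members rank 22 had the next lowest log2 fold change, −0.93 (SE 0.15, edgeR adjusted p = 0.00313 with the block). It had 1166, 933 and 1760 CPM at 12 h and 1496, 1717 and 3875 CPM at 0 h in hypoxia. Replicate 3 was highest at both times, the groups overlapped and each pair was lower at 12 h. The call was lost without replicate 2, where the edgeR adjusted p was 0.0913. In normoxia it had 313, 304 and 265 CPM at 12 h and 452, 519 and 460 CPM at 0 h, and its adjusted p with the block was 0.104, the lowest of the members there.

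The only member called higher was rank 88, whose log2 fold change was 0.40 (SE 0.11, adjusted p = 0.0437 by edgeR with the block). It had 704, 704 and 648 CPM at 12 h and 505, 449 and 480 CPM at 0 h in hypoxia, with no overlap, and 164, 293 and 300 CPM at 12 h and 160, 239 and 346 CPM at 0 h in normoxia. It lost the call without replicate 1 and without replicate 2.

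The most highly counted member, uc009eml.1, was also among the 14 called lower with the block. Its log2 fold change in hypoxia was −0.35 (SE 0.09, edgeR adjusted p = 0.0386 with the block), and the edgeR fit without the block gave −0.35 with SE 0.31 and did not call it. It lost the call without replicate 1 or replicate 2. The first-ranked uc009mix.2 had a log2 fold change of −0.03 (SE 0.24) without the block and 0.02 with it, and was called by neither edgeR fit. Over the 14 called lower, the log2 fold change ran from −1.42 to −0.35 with a median of −0.65. In normoxia 10 of the 14 also had a negative value. With the block, 44.7% of all members and 51.3% of all identifiers tested had a positive value in normoxia. The difference between oxygen conditions was called for none of the 14 by edgeR with the block. Its unadjusted p in that fit was under 0.05 for ranks 13, 14, 58, 69, 83, 93 and 111, against 10.0% of all identifiers tested. The 14 were called by their hypoxia change, which is part of this difference. Low p-values among them therefore follow in part from that choice, and no conclusion is drawn from them.

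**Figure D5:**
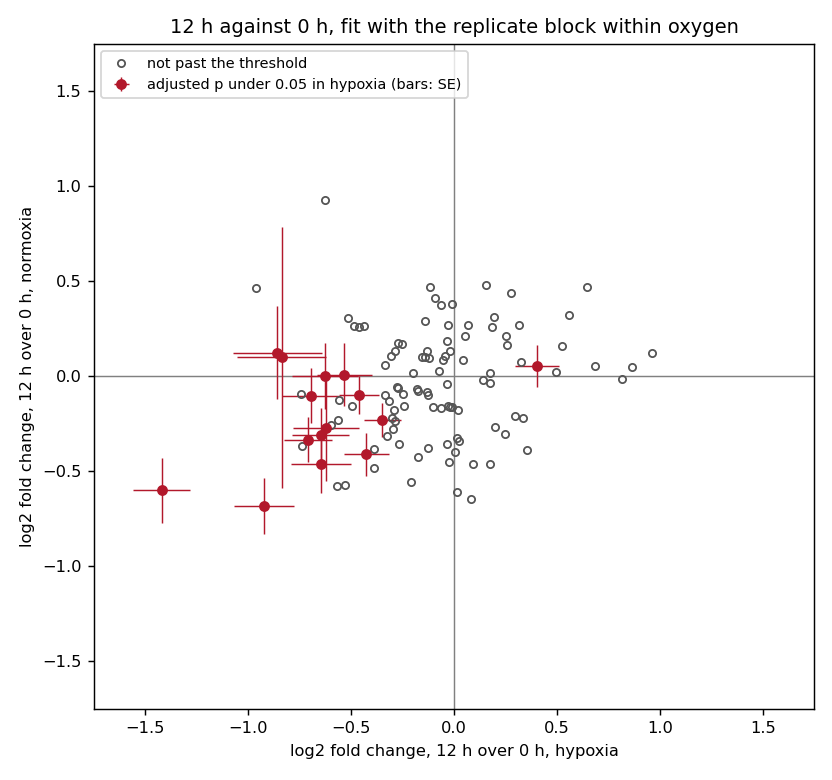
Log2 fold change of each member, 12 h over 0 h in untreated cells, from the edgeR fit with the replicate block, in hypoxia (x axis) and normoxia (y axis). Filled red points with SE bars are the 15 members past an adjusted p of 0.05 in hypoxia, 14 to the left of 0 and 1 to the right, and open points are the other members.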

How the data were processed

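The authors deposited raw read counts for 63244 UCSC transcript identifiers in 18 libraries, not normalized. Per the labels' protocols and the submitters' processing notes, ribosomal RNA was depleted, single-end reads of 50 bp were aligned to mm10 with TopHat2, counted with HTSeq and tested with DESeq2. The versions of these tools are not given in the sources used here. HTSeq's 5 summary rows without identifiers were left out. CPM used column sums of the assigned counts. Columns were matched to samples by the labels, where N2 and O2 columns are hypoxia and normoxia. The members and lists were chosen with earlier results of these data known. Of lists fixed for gene symbols and cell type markers, none could be used without gene names. By the naming rule, the member of largest ratio and that of highest mean hypoxia CPM are printed.

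Time was tested with edgeR 4.0.16 in R 4.3.3 (filterByExpr by group, TMM, robust quasi-likelihood F-test, 1 coefficient per group over 18 libraries, Benjamini-Hochberg over 13432 identifiers), with DESeq2 1.42.0 as an alternative. Standard errors are the absolute log2 fold change over the square root of F. The test without the block was checked on simulated data, and the fit with the block was not. The simulated libraries shared no deviations by replicate number, so the check does not cover that feature of these data. Replicate numbers are taken from the labels. Deviations of same-numbered 0 h and 12 h libraries from their group means correlated at 0.23, 0.39 and 0.43 in hypoxia and 0.66, 0.63 and 0.47 in normoxia, against at most 0.18 and 0.04 for other pairs. Each hypoxia number is also a lane.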

Additional observations from a re-analysis of the deposited data

How the results depend on the processing

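The number of members by the rule was 114. It was 29 with a minimum ratio of 4, 242 without replicate 3 of hypoxia in all 3 groups, and 142 to 318 when each replicate number was left out. The median log2 hypoxia to normoxia ratio was 1.69 at 0 h with TMM scaling (1.53 without). With 2 CPM added in place of 0.5 it was 1.37 at 12 h with IL-6, 1.33 at 12 h untreated and 1.34 at 0 h, and with 0.1 CPM added it was 1.54 at 12 h untreated. Leaving out replicates gave 1.49 to 1.64, 1.43 to 1.60 and 1.45 to 1.59 in these 3 states, and leaving out replicate 3 of hypoxia gave 1.53 at 12 h untreated. The median log2 IL-6 ratio of the members was 0.092 in hypoxia with TMM (0.051 without), 0.033 to 0.11 with replicates left out, and 0.021 to 0.16 in normoxia. With the replicate block, 15 members were called between 12 h and 0 h in hypoxia, against 254 of 13432 identifiers tested. With no block and no filter on low counts 1 member was called, against 9 of 30721. With the block, leaving out replicate 1, 2 or 3 gave 2, 6 and 10 members called in hypoxia, against 17, 95 and 257 of all identifiers. In normoxia it gave 1, 0 and 3 members, against 8 of 13801, 12 of 13749 and 63 of 13274. Without the block it gave 0 in either condition. The median time change ran from −0.24 to −0.05 in hypoxia, from −0.099 to −0.028 in normoxia and from −0.23 to 0.01 for the difference when replicates were left out, and was 0.023 for the difference without replicate 3 of all 3 hypoxia groups.

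The time change of uc009mix.2 in hypoxia, −0.03, turned to 0.022 with the block, to 0.24 without replicate 3, with or without the block, and ran from −0.17 to 0.29 over the single libraries left out. That of uc009eml.1 lay between −0.42 and 0.028 in normoxia and between −0.37 and 0.082 for the difference between oxygen conditions, with libraries left out. All these values miss the threshold. The cause of these shifts was not tested. Depth limits members near 1 CPM in normoxia, and the shallowest libraries were replicate 3 of hypoxia at 12 h untreated and at 0 h.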

Other observations

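Members with the pattern most like uc009mix.2 over the 9 hypoxia libraries, by Pearson correlation of log2(CPM + 0.5), were ranks 31, 101, 29, 38 and 33, at 0.96, 0.91, 0.87, 0.83 and 0.82. These are descriptions over 9 libraries that share replicates and lanes. Over the members the correlation had a median near −0.24, and 73 were negative. Replicate 3 is the highest hypoxia library of uc009mix.2 in each state.

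Members in adjacent rows of the table formed 5 pairs of 10 members. Ranks 114 and 93, which sit next to each other, correlated at 0.94 over the hypoxia libraries and were both called lower at 12 h in hypoxia with the replicate block. Ranks 103 and 95 correlated at −0.74. Whether such pairs belong to 1 gene cannot be read from the table.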
